A study of Mus musculus with 8 samples.

Results

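Kv1 potassium channels were described here through 9 genes of the deposited expression table, matched by exact symbol, out of 21959 listed genes. The 6 alpha subunit genes are Kcna1, Kcna2, Kcna3, Kcna4, Kcna5 and Kcna6, and the 3 beta subunit genes are Kcnab1, Kcnab2 and Kcnab3. The family was selected on read counts of the IsoL over Model contrast, in that its results were known and Kcna1 had passed the all-gene threshold. The differences between the groups below are therefore descriptions and give no independent support. All 9 genes passed the filter on low counts.

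The study asked how isoliensinine, an alkaloid of the lotus seed, affects sleep in mice. The IsoL group holds 4 libraries from WT mice labelled Isoliensinine, and the Model group holds 4 libraries from WT mice labelled PCPA (para-chlorophenylalanine, which blocks serotonin synthesis). By the design text the mice were female, of the ICR strain, dosed for 7 days and given pentobarbital 40 minutes after the final dosing. It names the hypothalamus as the tissue taken, where the sample label says only brain. Doses of 12.5, 25 and 50 mg/kg are listed for IsoL, and neither the dose sequenced nor any PCPA given to the IsoL mice is stated. Age is not given in the labels, and no label ties each library to a mouse of its own, so the p-values measure the spread between these libraries only. Untreated and alprazolam mice were not analysed here.

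Polyadenylated RNA was sequenced. Summed gene counts ran from 15731923 to 21620466 in the IsoL libraries and from 14262836 to 15886850 in the Model libraries. Values are CPM, counts relative to the TMM-scaled library size, unless FPKM, the deposited level per kilobase of gene, is named. All 4 Y-linked genes looked at were read in every library, at a sum of 310.7 to 344.1 CPM in IsoL and 301.2 to 353.8 CPM in Model, which goes against the stated sex. Hypothalamic marker genes, 20 in all, summed to 124.1 to 245.3 CPM in IsoL and 272 to 334.9 CPM in Model, and Kiss1 alone was at 0. Dorsal midbrain markers summed to 69.0 to 120.8 CPM in IsoL and 59.1 to 68.2 CPM in Model. In bulk tissue, fewer cells of a type and less RNA per cell cannot be told apart. Model 2 stood apart from the other libraries, where the chi-square over its degrees of freedom was 11.4 to 15.9, against 2.58 to 10.1 for pairs without it.

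Kv1 channels are voltage-gated potassium channels built from a ring of alpha subunits, which open near the threshold of the action potential and hold down repetitive firing. Different alpha subunits mix in one channel, and cytoplasmic beta subunits attach to them, steer them to the axon and can speed their inactivation. In myelinated axons they sit beside the node of Ranvier and at the initial segment. Loss of Kv1.1 causes seizures in mice, and the related fly channel, Shaker, is known for its effect on sleep length.

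The potassium selectivity filter lines the pore of each alpha subunit, and its motif is also found in other voltage-gated potassium channel families. Its coding sequence is shown to let the 6 copies be compared. The stretches below come from GENCODE M21 transcripts on GRCm38, sense strand, 5′ to 3′, and capitals mark the 6 codons of the filter, found by translating the longest reading frame. The filter starts at residue 372 in Kcna1, 374 in Kcna2, 397 in Kcna3, 525 in Kcna4, 469 in Kcna5 and 422 in Kcna6.
Kcna1: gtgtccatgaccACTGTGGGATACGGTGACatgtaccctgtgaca
Kcna2: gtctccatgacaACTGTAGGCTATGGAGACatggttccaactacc
Kcna3: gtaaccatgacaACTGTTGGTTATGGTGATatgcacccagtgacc
Kcna4: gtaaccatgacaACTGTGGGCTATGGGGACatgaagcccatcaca
Kcna5: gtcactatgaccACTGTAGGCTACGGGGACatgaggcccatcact
Kcna6: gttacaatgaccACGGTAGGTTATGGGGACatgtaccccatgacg

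The 6 filters encode the same residues, yet each of the other alpha genes differed from Kcna1 at 3 to 5 bases within the filter and at 10 to 14 of the 45 bases shown. Over whole translated sequences, aligned residues were identical between 61.7% (Kcna4 with Kcna5) and 81.7% (Kcna1 with Kcna2). The 3 beta proteins, which resemble aldo-keto reductases rather than channels, were 70.5% to 78.7% identical to each other. The longest run of identical bases between the coding transcripts of 2 alpha genes was 91 bases, in Kcna5 and Kcna6. The longest run that Kcna1 shared with another member was 31 bases, with Kcna6, and any beta pair shared at most 26. How the counting treated reads from such stretches is not stated.

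Except for Kcna4, the 6 alpha genes lie in clusters, by the coordinates of the deposited table. No label or header names the genome build of these coordinates. Kcna1 (ENSMUSG00000047976, chromosome 6, 126617360 to 126623347, minus strand) lies between Kcna5, 105.0 kb away, and Kcna6, 61.9 kb away, with no other listed gene between them. Kcna2 (ENSMUSG00000040724, chromosome 3, 107008462 to 107022321, plus strand) and Kcna3 are 63.1 kb apart, also with no listed gene between them. Kcna4 is on chromosome 2, Kcnab1 on chromosome 3, Kcnab2 on chromosome 4 and Kcnab3 on chromosome 11. Kcnab2 overlaps Nphp4 on the opposite strand over 1205 bases. No strand marking is stated, so reads there cannot be assigned to one gene. Nphp4 had 898 summed counts in IsoL and 676 in Model, against 23796 in IsoL and 18773 in Model for Kcnab2.

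Kcna1 encodes Kv1.1, the axonal subunit whose human gene is mutated in episodic ataxia. It had 97.0, 99.5, 85.6 and 81.9 CPM in IsoL 1 to 4, against 66.6, 63.8, 67.3 and 69.1 CPM in Model 1 to 4. Every IsoL library lay above every Model library, and IsoL 1 and 2 were the highest. The mean was 91.0 ± 8.58 CPM in IsoL and 66.7 ± 2.17 CPM in Model (SD, n = 4 each), a log2 fold change of 0.45 (SE 0.07, 95% interval 0.31 to 0.59), or 36.4% higher in IsoL. These values were known when the family was chosen and support nothing further. The Kcna1 call over all genes, edgeR adjusted p = 0.0192, was lost without IsoL 1 (0.0593), IsoL 2 (0.0744) or Model 4 (0.0613).

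Kcna2 encodes Kv1.2, the usual partner of Kv1.1 in axonal channels. It had 523.5, 485.7, 450.9 and 465.3 CPM in IsoL 1 to 4, against 429.1, 412.2, 424.8 and 434.3 CPM in Model 1 to 4. Again no library of one group reached into the other, and IsoL 1 was the highest. The log2 fold change was 0.18 (SE 0.05, 95% interval 0.07 to 0.29), or 13.2% higher in IsoL, and it did not pass in edgeR (adjusted p = 0.148). DESeq2, which called 311 genes where edgeR called 40, called Kcna2 (adjusted p = 0.0308). With a library left out, edgeR called it in 0 of 8 fits (edgeR adjusted p 0.0947 to 0.355).

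Kcna6 encodes Kv1.6, a delayed rectifier subunit of neurons and the neighbour of Kcna1. It had 113.8, 111.1, 105.1 and 113.7 CPM in IsoL 1 to 4, against 117.0, 127.7, 96.6 and 109.0 CPM in Model 1 to 4. The IsoL values lay inside the Model range, whose high and low ends were Model 2 and Model 3. Its log2 fold change was -0.02 (95% interval -0.18 to 0.13, edgeR adjusted p = 0.926).

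Kcna4 encodes Kv1.4, the alpha subunit with a fast inactivating ball of its own. Its values were 28.0, 32.1, 36.1 and 30.1 CPM in IsoL 1 to 4, against 35.2, 34.3, 37.6 and 33.5 CPM in Model 1 to 4. IsoL 3 lay among the Model libraries and the other IsoL libraries lay below them. The log2 fold change was -0.15 (95% interval -0.33 to 0.02, edgeR adjusted p = 0.431), opposite in sign to that of Kcna1 and Kcna2, and the difference between these genes was not tested.

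Kcna5 and Kcna3 were the scarce members. Kcna5 encodes Kv1.5, known from heart and arterial muscle, and lies on the other side of Kcna1. It had 86, 88, 151 and 182 counts in IsoL 1 to 4, or 5.28, 5.10, 9.55 and 8.34 CPM, against 7.76, 6.63, 7.44 and 8.96 CPM in Model 1 to 4. IsoL 1 and 2 were below every Model library and IsoL 3 was above them all, so the IsoL group split. The log2 fold change of -0.12 (95% interval -0.55 to 0.31, edgeR adjusted p = 0.834) averages over that split. Vessel wall markers, 8 genes, summed to 307.7, 272.9, 283.6 and 326.9 CPM in IsoL 1 to 4 and to 282.4 to 345.6 CPM in Model. Their part in the Kcna5 values was not tested.

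Kcna3 encodes Kv1.3, known from T cells and microglia. It had 57 to 62 counts per library in IsoL and 32 to 58 in Model, at 3.38 ± 0.472 CPM in IsoL and 2.92 ± 0.847 CPM in Model (SD, n = 4 each). The groups overlapped, and the interval of the log2 fold change was wide (0.21, 95% interval -0.27 to 0.68, edgeR adjusted p = 0.726). It was 0.06 without Model 2, the lowest library, and 0.41 without Model 1, the highest. Microglial markers, 8 genes, summed to 236.1 to 283.0 CPM in IsoL and 206.6 to 242.4 CPM in Model, and all 8 log2 fold changes were above 0 with none called. T cell markers, 7 genes, summed to 1.35 to 4.54 CPM in IsoL and 1.70 to 3.004 CPM in Model. Of these, Cd3d did not exceed 3 counts in any library. The part of either list in the Kcna3 values was not tested.

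The other alpha genes of the family, Kcna7 and Kcna10, are not among the 9. Kcna7, a muscle gene, had 0 counts in every library, and 3 counts correspond to 0.139 to 0.210 CPM, a limit that covers counting error only. Kcna10 had 1 count in IsoL and 5 in Model over all libraries, too few for a fold.

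Kcnab2 encodes the main brain beta subunit, Kvbeta2, which lacks an inactivating ball. It had 361.3, 355.7, 311.3 and 314.2 CPM in IsoL 1 to 4, against 325.7, 319.8, 302.2 and 316.6 CPM in Model 1 to 4. IsoL 1 and 2 exceeded every Model library, while IsoL 3 and 4 lay within the Model range. IsoL over Model, the log2 fold change was 0.09 (95% interval -0.03 to 0.21, edgeR adjusted p = 0.544).

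Kcnab3 encodes Kvbeta3, the remaining beta subunit. It had 40.3, 32.9, 30.3 and 33.3 CPM in IsoL 1 to 4, against 27.1, 38.1, 26.6 and 25.1 CPM in Model 1 to 4. All 4 IsoL libraries were above Model 1, 3 and 4, and Model 2 alone lay within the IsoL range. The log2 fold change was 0.22 (95% interval -0.07 to 0.52, edgeR adjusted p = 0.514) with all libraries. It was 0.38 without Model 2, and still did not pass (edgeR adjusted p = 0.0616).

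Kcnab1 encodes Kvbeta1, whose variants can carry an inactivating ball. It had 93.0, 83.7, 73.6 and 77.9 CPM in IsoL 1 to 4, against 90.8, 87.6, 78.2 and 88.6 CPM in Model 1 to 4. The groups overlapped throughout (log2 fold change -0.07, 95% interval -0.23 to 0.08, edgeR adjusted p = 0.702).

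**Figure D1:**
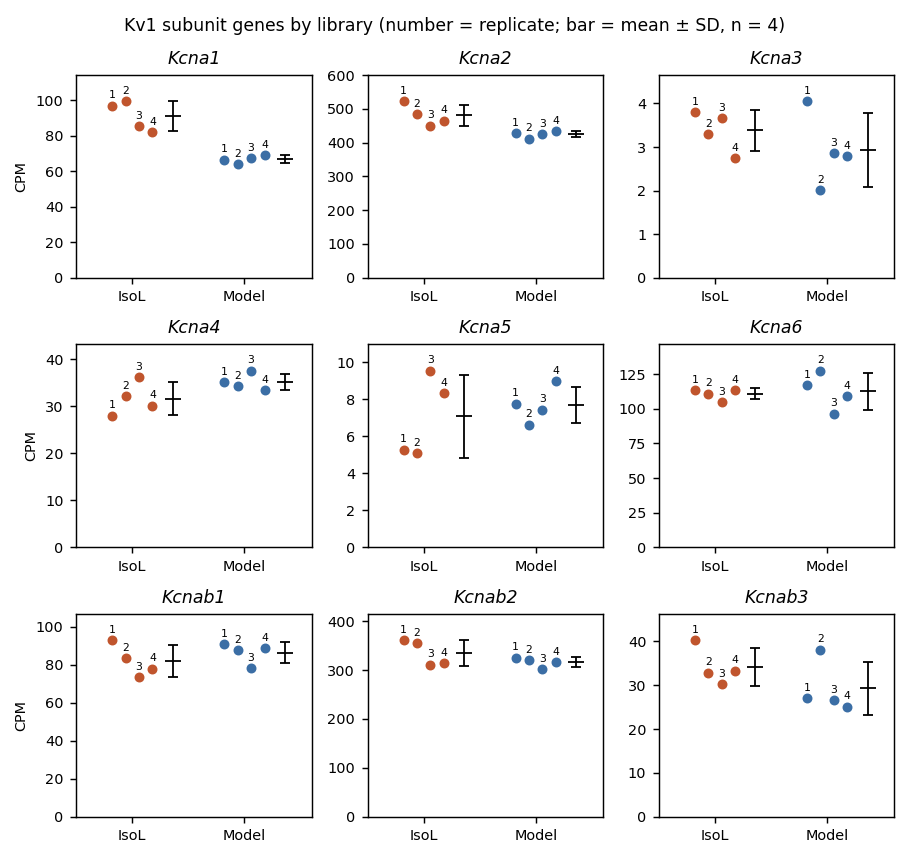
CPM of the 9 genes in each library, IsoL left of Model, with the replicate number above each point and the mean ± SD (n = 4) beside it. Kcna1 lay at 81.9 to 99.5 CPM in IsoL and 63.8 to 69.1 CPM in Model, and Model 2 stood above the other Model libraries for Kcnab3.

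Over all 14536 tested genes, 0.275% were called at an adjusted p under 0.05 in edgeR, and 0.117% were called and higher in IsoL. Among the 9 members 1 was called, Kcna1, and since that call was known when the family was chosen, nothing is read from the share. Libraries of the groups did not overlap for 2 members, Kcna1 and Kcna2, against 8.48% of all tested genes, or 4.05% counting only genes higher in IsoL. The members' log2 fold changes were above 0 for 5 and below 0 for 4, with a median of 0.09. Over all tested genes the median was -0.001 and 49.5% were above 0.

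Levels between genes were compared per length. By deposited FPKM, Kcnab2 stood highest, at 48.1 ± 3.47 in IsoL and 45.2 ± 1.10 in Model, followed by Kcna2 at 40.5 ± 2.44 in IsoL and 35.6 ± 0.668 in Model. Kcna1 was at 19.0 ± 1.66 FPKM in IsoL and 13.9 ± 0.446 in Model. Kcna6 was at 18.7 ± 0.677 FPKM in IsoL and 18.9 ± 2.18 in Model. Kcna1 and Kcna6 changed places between the groups. Kcna1 was the higher of them in 3 of 4 IsoL libraries, and Kcna6 in 4 of 4 Model libraries.

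Below them came Kcnab3 at 11.9 ± 1.45 FPKM in IsoL and 10.2 ± 2.14 in Model, and Kcnab1 at 7.34 ± 0.709 in IsoL and 7.70 ± 0.436 in Model. Kcna4 was at 6.54 ± 0.731 FPKM in IsoL and 7.26 ± 0.401 in Model. Kcna5 was at 2.48 ± 0.794 FPKM in IsoL and 2.69 ± 0.327 in Model, and Kcna3 at 1.78 ± 0.242 in IsoL and 1.53 ± 0.427 in Model. The ranges of Kcnab1 and Kcna4 overlapped in both groups. Those of Kcna1 with Kcna6 and of Kcna5 with Kcna3 overlapped in IsoL. Every other step in the order was kept in all 4 libraries of its group with no overlap.

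The order depends on the gene length used. The deposited length of Kcnab1 is 11174 bases, while its longest coding transcript in GENCODE M21 has 3245. For Kcnab2 these lengths are 6977 and 3922, and for Kcna1 4780 and 4031. With the longest coding transcript as length, an alternative added after seeing the data, Kcnab1 was at 25.3 ± 2.58 CPM per kb in IsoL and 26.6 ± 1.71 in Model and took rank 3 in both groups, though in IsoL its range overlapped that of Kcna1. On that scale Kcna1 was at 20.3 to 24.7 CPM per kb in IsoL, above the 18.01 to 19.5 of Kcna6. In Model, Kcna1 at 15.8 to 17.1 and Kcna6 at 16.6 to 21.9 CPM per kb overlapped.

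**Figure D2:**
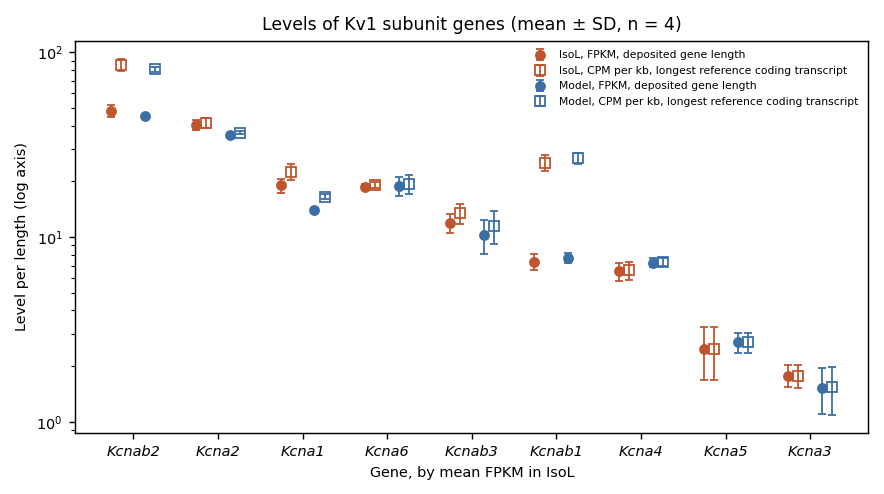
Level per length of the 9 genes on a log axis, mean ± SD (n = 4), IsoL left of Model for each gene. Filled circles are deposited FPKM and open squares CPM per kb of the longest coding transcript in the reference, and Kcnab1 moves most between them, at 7.34 FPKM and 25.3 CPM per kb in IsoL.

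Summed over the 6 alpha genes, the level was 92.6, 89.8, 86.6 and 86.7 FPKM in IsoL 1 to 4, against 80.3, 80.4, 78.5 and 80.5 FPKM in Model 1 to 4. The groups did not overlap. Of the genes in this sum, only Kcna1 and Kcna2 were themselves without overlap, and Kcna1 was the gene known when the family was chosen. Kcna1 was at 19.0 FPKM in IsoL and 13.9 in Model, and Kcna2 at 40.5 in IsoL and 35.6 in Model. Kcna4, Kcna5 and Kcna6 had lower means in IsoL, so the sum does not show a rise of the whole family. Kcna2 made up 45.4 ± 1.38% of the sum in IsoL and 44.6 ± 1.11% in Model. Kcna1 made up 21.8, 23.0, 20.8 and 19.9% in IsoL 1 to 4, against 17.0, 16.7, 18.1 and 17.9% in Model 1 to 4, a difference of 3.96 percentage points between the means. Its share was therefore larger in every IsoL library, while that of Kcna6, 21.0 ± 0.841% in IsoL and 23.6 ± 2.53% in Model, overlapped. Kcna4 took 7.37 ± 1.002% in IsoL and 9.08 ± 0.616% in Model, with overlap (IsoL 3 at 8.669%, Model 4 at 8.575%). The shares of a library add up to the whole, so a larger Kcna1 share leaves less for the other genes. In FPKM, Kcna6 was at 18.7 in IsoL and 18.9 in Model.

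Within each library, the ratio of Kcna1 to Kcna2 in FPKM was 0.461, 0.510, 0.473 and 0.438 in IsoL 1 to 4, against 0.386, 0.386, 0.395 and 0.396 in Model 1 to 4. The ratio does not depend on how libraries are scaled to each other, and its groups did not overlap. Beta subunits summed to 67.4 ± 5.29 FPKM in IsoL and 63.1 ± 3.10 FPKM in Model, with overlap. Kcnab1 took 10.7 to 11.2% of the beta sum in IsoL and 11.7 to 12.8% in Model, also without overlap. Its own level did overlap, at 6.62 to 8.28 FPKM in IsoL and 7.05 to 7.98 FPKM in Model. These shares come from the contrast already known when the family was chosen and are not tested.

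**Figure D3:**
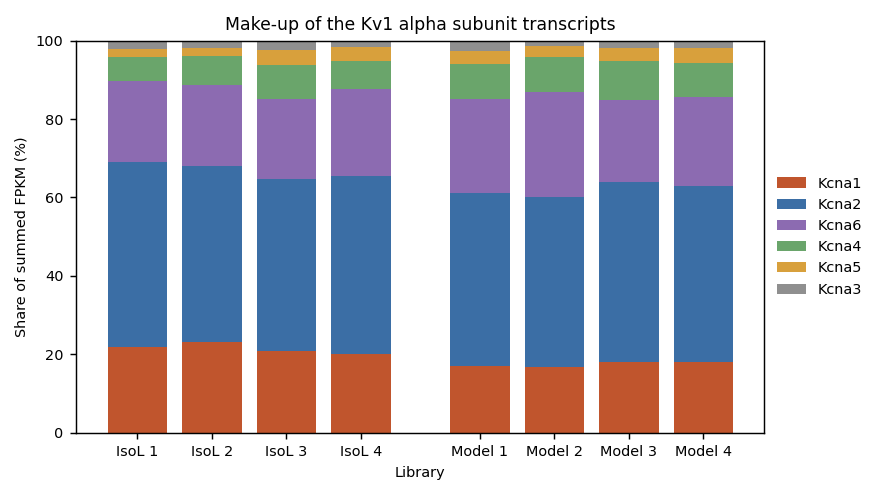
Share of each alpha gene in the summed alpha FPKM (%), one stacked bar per library, IsoL left of Model. The lowest segment, Kcna1, takes 19.9 to 23.0% in IsoL and 16.7 to 18.1% in Model.

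Genes that work with Kv1 channels were listed by function, 36 in all, and all 36 were tested. None passed in edgeR or in DESeq2. An unadjusted edgeR p under 0.05 was found for 4 of them, or 11.1%, beside 1922 of all 14536 tested genes, or 13.2%, so the share among the partner genes was not above the background. Of the 36, 25 had a log2 fold change above 0 and 11 below, with a median of 0.04. For 3 of them the libraries of the groups did not overlap, beside the 8.48% of all tested genes.

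LGI proteins are secreted ligands that bind ADAM22 and ADAM23 on the axon and hold Kv1 channels in place. Of these 7 genes 6 were above 0 in log2 fold change and none passed. Adam23 was at 235.9 ± 3.62 CPM in IsoL and 219.6 ± 0.762 CPM in Model (SD, n = 4 each; log2 0.10, SE 0.04, edgeR adjusted p = 0.285), with no overlap between the groups. Lgi1, a ligand whose human gene is mutated in a familial lateral temporal lobe epilepsy, was at 76.7 ± 7.54 CPM in IsoL and 70.2 ± 2.94 CPM in Model (edgeR adjusted p = 0.442).

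The juxtaparanodal adhesion and scaffold genes, Cntnap2, Cntn2, Epb41l2 and Epb41l3, cluster Kv1 channels beside the paranode. All 4 had log2 fold changes between 0.03 and 0.10, and none passed. Epb41l2 was at 138.1 ± 8.19 CPM in IsoL and 128.9 ± 6.01 CPM in Model (edgeR adjusted p = 0.454), and Epb41l3 had a log2 fold change of 0.04 (edgeR adjusted p = 0.751). The 4 MAGUK scaffold genes, whose proteins bind the tail of Kv1 alpha subunits, lay between -0.02 and 0.10. Dlg2 had a log2 fold change of 0.10 (edgeR adjusted p = 0.520) and Dlg3 of 0.05 (edgeR adjusted p = 0.756).

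Among 6 genes of trafficking and modulation, none passed and 4 were below 0. Rhoa, a small GTPase that modulates Kv1.2, had a log2 fold change of -0.05 (edgeR adjusted p = 0.706).

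The node, paranode and initial segment list of 15 genes had 10 above 0 and none that passed. Ank3, the ankyrin that organises the initial segment and the node, was at 638.2 ± 25.0 CPM in IsoL and 571.8 ± 39.5 CPM in Model (log2 0.16, SE 0.05, edgeR adjusted p = 0.238). Scn8a, the sodium channel of mature nodes, was at 308.2 ± 29.0 CPM in IsoL and 273.3 ± 8.27 CPM in Model (log2 0.17, SE 0.06, edgeR adjusted p = 0.248). For both, every IsoL library lay above every Model library.

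**Figure D4:**
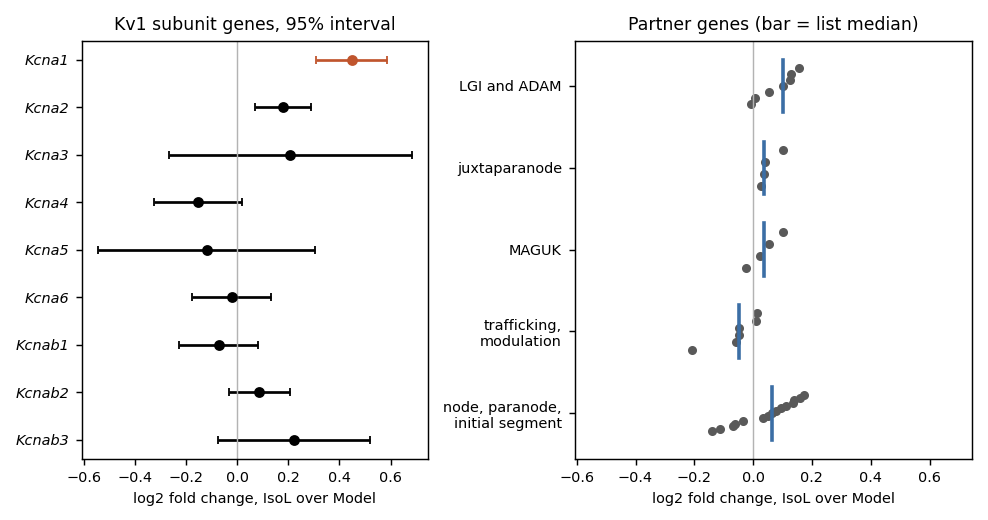
Log2 fold change, IsoL over Model, with 95% intervals for the 9 members (left; Kcna1, called over all genes, in orange) and as one point per gene for 5 lists of partner genes (right; bars are list medians). Kcna1 lies at 0.45, and the median of the 36 partner genes is 0.04.

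The tested genes next to the clusters were looked at for position. Ntf3, a neurotrophin gene beyond Kcna5, had a log2 fold change of 0.21 (95% interval -0.33 to 0.76) and Ndufa9, of respiratory complex I, beyond Kcna6, of 0.07 (95% interval -0.05 to 0.18). On chromosome 3, Cd53, a leukocyte tetraspanin gene, was at -0.01 and Lamtor5, of the lysosomal Ragulator complex, at -0.04. Beside the other members, Arl14ep and Mettl15 (Kcna4), Vmn2r1 and Ssr3 (Kcnab1), Chd5 and Ajap1 (Kcnab2) and Trappc1 and Rnf227 (Kcnab3) lay between -0.31 and 0.61. No neighbour outside the family passed in edgeR, and the smallest adjusted p was 0.241, for Rnf227.

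Likeness to Kcna1 was measured as Pearson's r of log CPM over the 8 libraries, as a description without a test. The 5 closest of all tested genes were Lpar6 (r = 0.98), Pcnx2 (0.97), Cpsf3 (0.97), Eif2b4 (0.97) and Zfp354c (0.96). Their log2 fold changes ran from 0.15 to 0.72 and none passed in edgeR with all libraries. Cpsf3 (edgeR adjusted p = 0.0654) passed in edgeR without the filter on low counts (0.0406) and without Model 2 (0.0307), and in DESeq2 (0.00407). Among the members, r was 0.93 for Kcna2 and 0.71 for Kcnab2, and -0.64 for Kcna4 and -0.50 for Kcna5. The difference between the groups enters each of these values.

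With each group centred on its own mean, the 5 genes closest to Kcna1 were Brinp1, Rorb, Trpc4, Rfx3 and Dgkb, with r of 0.98 to 0.99. Their log2 fold changes between the groups ran from -0.08 to 0.27. Among the members the centred r was 0.80 for Kcnab2, 0.77 for Kcna2 and 0.58 for Kcnab1, and -0.71 for Kcna5. The spread of Kcna1 itself was wider in IsoL than in Model (SD of 8.58 and 2.17 CPM), so the centred r rests mainly on the IsoL libraries. Each set of 5 was picked for the highest r among the tested genes over 8 libraries. A high r is therefore partly a result of that choice.

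Other tissue markers varied over the same libraries. Within IsoL, cortical and hippocampal markers, 12 genes, summed to 640.1 and 633.0 CPM in IsoL 1 and 2 and to 506.0 and 492.2 CPM in IsoL 3 and 4, against 457.9 to 520.1 CPM in Model. Kcna1, Kcna2, Kcnab1 and Kcnab2 were higher in IsoL 1 and 2 than in IsoL 3 and 4, and Kcna5 was lower. Sums of pan-neuronal, large fast-spiking neuron, oligodendrocyte and thalamic markers were also higher in IsoL 1 and 2. For thalamic markers this was narrow, with IsoL 1 at 1606.8 CPM and IsoL 3 at 1601.0 CPM. Oligodendrocyte markers summed to 16651.2 and 15886.6 CPM in IsoL 1 and 2, against 15101.4 and 15523.1 CPM in IsoL 3 and 4. Microglial, hypothalamic and T cell sums were lower in IsoL 1 and 2. Dorsal midbrain markers, 13 genes, were highest in IsoL 1 and 4, at 120.8 and 117.5 CPM, against 75.5 and 69.0 CPM in IsoL 2 and 3.

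Between the groups, hypothalamic marker sums were lower in every IsoL library, with 15 of 18 tested members below 0 and 1 called. Dorsal midbrain sums were higher in every IsoL library, though narrowly so for IsoL 3 at 69.0 CPM against Model 3 at 68.2 CPM. Of 12 tested dorsal midbrain members, 10 were above 0 and 3 were called. Over all tested genes 0.275% were called. The astrocyte sum over 8 genes was 4533.6 to 4637.5 CPM in IsoL and 3884.2 to 4356.4 CPM in Model, with all 8 members above 0 and none called. Oligodendrocyte markers, 10 genes whose cells make the myelin around Kv1-bearing axons, summed to 15101.4 to 16651.2 CPM in IsoL and 14838.8 to 15456.8 CPM in Model. Genes of large fast-spiking neurons, 11 in all, summed to 2490 to 2841.5 CPM in IsoL and 2240.5 to 2719.5 CPM in Model. In both lists Model 2 was the only Model library within the IsoL range. The other Model libraries lay at 14838.8 to 14924.3 CPM for oligodendrocyte markers and 2240.5 to 2358.4 CPM for fast-spiking neurons. Log2 fold changes were above 0 for 8 of 10 oligodendrocyte and 7 of 11 fast-spiking genes, with none called. Pan-neuronal markers, 7 genes, summed to 6081 to 6385.4 CPM in IsoL and 5896.4 to 6466.9 CPM in Model, and thalamic markers, 10 genes, to 1449.8 to 1743.1 CPM in IsoL and 1557.9 to 1784.1 CPM in Model. Hindbrain markers, 10 genes, summed to 4.62 to 25.4 CPM in IsoL and 1.88 to 16 CPM in Model, and 8 of them never exceeded 3 counts. The part of these markers in the Kcna1 and Kcna2 values was not tested.

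**Figure D5:**
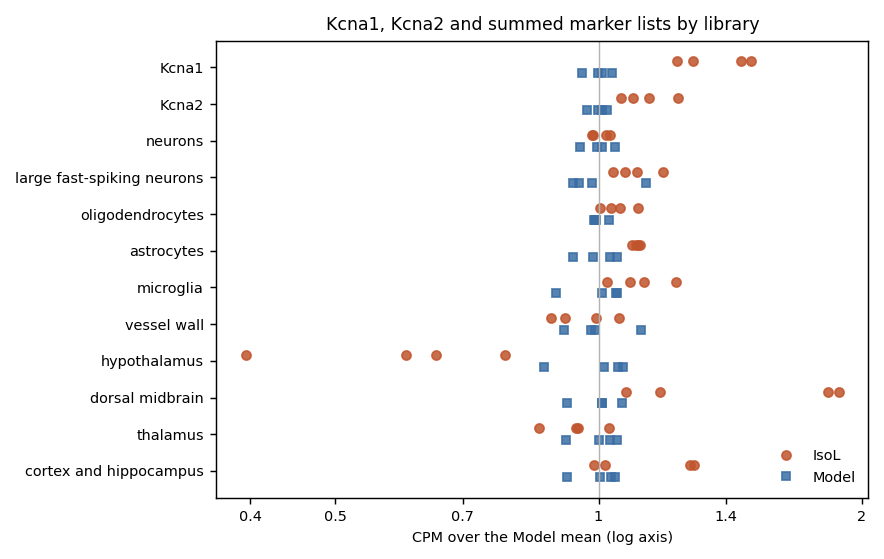
Level in each library relative to the Model mean, on a log axis, for Kcna1, Kcna2 and the summed CPM of 10 marker lists, IsoL drawn above Model. Kcna1, Kcna2, astrocyte and dorsal midbrain values are higher in every IsoL library and hypothalamic values lower, at 124.1 to 245.3 CPM in IsoL and 272 to 334.9 CPM in Model.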

How the data were processed

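Per the file headers, the authors deposited raw counts and FPKM for each gene in 8 libraries. The submitters' processing notes name fastp 0.22.0, HISAT2 2.1.0 and HTSeq 0.9.1, while no source used here names the build or annotation. The deposited FPKM equalled counts over gene length and summed counts, within a relative difference of 1.11e-09 for values over 200 counts. Summed counts ran from 14262836 to 21620466, and these limit precision for the scarce genes.

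Counts were filtered with filterByExpr (14536 genes kept), scaled with TMM and tested in edgeR 4.0.16 (robust quasi-likelihood F-test, Benjamini-Hochberg threshold 0.05, no covariate). The SE is the absolute log2 fold change over the square root of F. Alternatives were DESeq2 1.42.0, its size factors, no filter, a replicate block each library left out and, added after seeing the data, reference transcript lengths. Within groups no libraries were duplicates (smallest chi-square per degree of freedom 2.58).

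The members, gene lists and alternatives were chosen with earlier results of these data known. Named were all members, Kcna7 and Kcna10, the 2 partner genes of smallest p in each list, none having passed (1 of these is not reported here), the nearest tested genes, and the 5 genes most like Kcna1. For the protein-coding transcripts, GENCODE M21 was used, matched by gene identifier for all 9 members.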

Additional observations from a re-analysis of the deposited data

Results flagged for a closer look

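Among 46 groups of 4 values screened, 4 held a library far from the other 3, where chance flags about 1 group in 20. The groups are not independent, since shares and sums come from the same gene values. Kcnab3 was at 38.1 CPM in Model 2, against 25.1 to 27.1 CPM in the other Model libraries. In the same library Kcnab2 took 68.4% of the summed beta FPKM, against 72.6 to 73.1% in the others. That sum includes Kcnab3, and Kcnab2 itself was at 46.1 FPKM in Model 2, against 43.65 to 45.85 FPKM in the other Model libraries. Kcna6 took 22.3% of the summed alpha FPKM in IsoL 4, against 20.5 to 20.7% in the other IsoL libraries. The summed alpha level was 78.5 FPKM in Model 3, against 80.3 to 80.5 FPKM in the other Model libraries.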

How the results depend on the processing

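The count of genes called over the whole table was 40, and it was 74 with no filter on low counts, 311 in DESeq2 and 6 to 146 with a library left out. It was 6 without IsoL 2 or Model 4, 8 without IsoL 1, 9 without IsoL 4, 13 without Model 1, 16 without IsoL 3, 21 without Model 3 and 146 without Model 2. With the replicate block it was 17, and Kcna1 had a log2 fold change of 0.44 (edgeR adjusted p = 0.0368). Deviations of same-numbered libraries correlated at 0.02 to 0.07, and 1 of 4 IsoL libraries correlated best with its own number, so the numbers were not taken to pair the samples. Among the members 1 was called, 2 in DESeq2, and 0 to 1 with a library left out. The log2 fold change of Kcna1 ran from 0.40 to 0.50 with a library left out, and the cause of its lost calls was not tested. The difference in Kcna1 share ran from 3.41 to 4.44 percentage points, and was 4.31 with reference transcript lengths.

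Of 41 named genes, 35 kept their sign under each of the 12 alternatives. The other 6 changed sign with a library left out, and all but Kcna5, at -0.120 (SE 0.197), were near 0 with all libraries. Kcna5 ran from -0.291 to 0.010, Kcna6 from -0.082 to 0.047, Lamtor5 from -0.072 to 0.035, Cd53 from -0.124 to 0.084, Mettl15 from -0.107 to 0.013 and Chd5 from -0.071 to 0.033 on the log2 scale. Among the 9 members, Kcna3 had the fewest counts, 32 to 62 per library.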
